A study of Homo sapiens with 6 samples.

Results

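Genes of the response to low oxygen and of glycolysis were followed in A549, an established human lung adenocarcinoma line, after transfection with the long non-coding RNA SNHG5 or with a vector. The 33 genes were taken by symbol from a deposited table of 58302 gene rows. All 33 were found, and 17 belong to glucose uptake and glycolysis while 16 are other targets of the hypoxia response. The series holds 6 libraries, 3 labelled SNHG5 overexpression and 3 labelled control. Both groups are A549 cells at passage 6 to 8, grown at 37 °C with 5% CO2 in RPMI medium with 10% fetal bovine serum. The labels record no low-oxygen treatment in either group, and they do not state the vector, the time after transfection or whether the cells were selected. The labels call the 3 libraries per group biological replicates, and no untransfected cells were analysed here.

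Cells sense oxygen through hydroxylases that mark the alpha subunits of hypoxia-inducible factor (HIF) for destruction by the von Hippel-Lindau protein. When oxygen is short the subunits persist, pair with ARNT and bind a short core sequence, the hypoxia response element. The genes they switch on raise glucose uptake and glycolysis, hold pyruvate back from the mitochondria, and act on vessels, acidity, mitochondrial clearance and collagen. Most glycolytic enzymes are also strongly expressed in growing tumour cells with ample oxygen, so the same enzymes serve housekeeping and hypoxic roles.

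The libraries were checked against markers of the line. KRT8, a keratin of simple epithelia, held 1265, 1306 and 2248 CPM, counts brought to the same library size, in the libraries labelled overexpression and 2473, 2661 and 2438 CPM in the controls. Its groups did not overlap, and the log2 fold change of -0.65 had an edgeR p of 0.0461 and an adjusted p of 0.746. CDH1, the epithelial cadherin, held 7.89, 8.59 and 28.0 CPM in the libraries labelled overexpression and 17.1, 33.6 and 29.99 CPM in the controls, with a log2 fold change of -0.86 (SE 0.52). None of the 5 epithelial markers passed the test, and the part of these differences in the results was not tested. KRT18, another such keratin, lay at 743 to 1298 CPM over the 6 libraries, with a log2 fold change of -0.30 (SE 0.23). KRT19, a further keratin, lay at 80.8 to 113.1 CPM, with a log2 fold change of 0.01 (SE 0.19). EPCAM, an epithelial adhesion protein, was low at 2.27 to 4.19 CPM, with a log2 fold change of 0.32 (SE 0.33). COL1A1, a collagen of fibroblasts, lay at 1.88 to 16.4 CPM, and its part in the results was not tested. CDKN2A, which is deleted in A549, lay at 0.123 to 0.459 CPM, and the leukocyte genes PTPRC, CD3E and LYZ had no counts in any library. The libraries held 13378079 to 16999604 counts, and a limit of 3 counts for an unseen gene came to 0.175 to 0.218 CPM. MALAT1, a long non-coding RNA, lay at 476.1, 118.3 and 409.7 CPM in the libraries labelled overexpression. In the controls it lay at 410.2, 28.1 and 372 CPM, lowest in control 2. Mitochondrial genes took 2.57% of the counts in control 2, against 3.8% to 6.16% in the other libraries. AKR1B10, AKR1C1 and AKR1C2, reductases abundant in A549, held 3602, 778 and 2005 CPM in control 2. In the other libraries they lay at 1061 to 2034, 210.6 to 386.3 and 591.3 to 1035 CPM. ALDH1A1, also abundant in A549, lay at 3757 to 5186 CPM over the 6 libraries, and none of these 4 passed the test. The part of these differences in the results was not tested. SNHG5 itself stood at 153.3, 126.5 and 62.9 CPM in the libraries labelled overexpression 1, 2 and 3, against 61.0, 101.3 and 55.1 CPM in controls 1, 2 and 3. Each library labelled overexpression lay above the control of its own number, by 1.33, 0.32 and 0.19 on the log2 scale. The groups overlapped, and the log2 fold change of 0.66 (SE 0.37) had an edgeR adjusted p of 0.746, or 0.545 with the replicate number as a block, so each direction given here is between libraries as labelled. The 33 genes together took 0.951%, 1.13% and 1.33% of the counts in the libraries labelled overexpression 1, 2 and 3 and 1.06%, 1.32% and 1.11% in controls 1, 2 and 3.

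Promoter sequence shows where the response element core lies in CA9, ENO2 and EGLN1, whose groups did not overlap, and in the abundant lactate enzyme gene LDHA. Groups also did not overlap for 13.6% of all genes tested, and CA9 did not pass the low-count filter. VEGFA, BNIP3L, SLC2A3 and NDRG1 have no entry in the RefSeq table. Each line gives 250 bases before the first listed RefSeq start on GRCh38.p14, read 5′ to 3′ in the direction of the gene, with the cores ACGTG and GCGTG in capitals on the strand shown or, as CACGT and CACGC, on the other. The CA9 window is chr9:35673678-35673927, plus strand, the ENO2 window chr12:6914330-6914579, plus strand, the EGLN1 window chr1:231422288-231422537, minus strand, and the LDHA window chr11:18394313-18394562, plus strand.
CA9: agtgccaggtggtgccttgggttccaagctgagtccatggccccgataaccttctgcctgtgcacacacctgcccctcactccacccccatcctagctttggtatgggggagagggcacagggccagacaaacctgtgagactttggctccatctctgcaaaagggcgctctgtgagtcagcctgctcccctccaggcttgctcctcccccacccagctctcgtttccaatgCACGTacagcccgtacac
ENO2: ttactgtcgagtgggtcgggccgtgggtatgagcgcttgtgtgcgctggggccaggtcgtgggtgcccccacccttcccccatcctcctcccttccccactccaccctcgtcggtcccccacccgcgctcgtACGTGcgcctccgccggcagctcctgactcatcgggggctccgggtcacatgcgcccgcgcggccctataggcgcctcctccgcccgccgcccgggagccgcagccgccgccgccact
EGLN1: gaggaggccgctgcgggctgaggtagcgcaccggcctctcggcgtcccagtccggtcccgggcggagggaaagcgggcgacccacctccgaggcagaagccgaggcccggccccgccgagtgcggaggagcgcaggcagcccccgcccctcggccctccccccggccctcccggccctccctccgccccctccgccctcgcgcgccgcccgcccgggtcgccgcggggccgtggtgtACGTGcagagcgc
LDHA: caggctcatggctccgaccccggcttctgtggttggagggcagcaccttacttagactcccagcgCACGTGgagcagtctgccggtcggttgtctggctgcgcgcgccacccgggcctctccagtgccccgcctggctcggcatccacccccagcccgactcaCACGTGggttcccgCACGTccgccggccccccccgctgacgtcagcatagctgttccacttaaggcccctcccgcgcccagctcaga
CA9, ENO2 and EGLN1 hold 1 core each and LDHA holds 5, where CACGTG counts once per strand. Over the 29 of 33 genes with an entry, 21 windows (72.4%) held a core, against 43.1% of 27305 genes of any kind, each by its first listed start. ACGTG alone was in 16 of 29 (55.2%), against 18.7% of all genes, and in 8 of 16 glycolysis genes and 8 of 13 other targets. With every listed start a core was in 34 of 43 windows (79.1%), against 43.2% of 35116. Of the 29 genes 10, LDHA among them, have more than 1 listed start, and 19 of the 29 windows lie wholly inside the gene span of the deposited table, ENO2 and EGLN1 among them, so they do not cover the sequence before every start of a gene. The windows were not matched for base composition, and a match is a description of letters and not of binding.

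Levels of the 33 genes spanned more than the difference between the groups for any of them. Divided by merged exon length, GAPDH stood highest at 1072 ± 353 CPM per kb in the libraries labelled overexpression and 1052 ± 126 CPM per kb in the controls (SD, n = 3 each). ENO1 followed at 413 ± 28.6 CPM per kb in the libraries labelled overexpression and 434 ± 22.5 CPM per kb in the controls. LDHA and TPI1 lay at 240 ± 35.5 and 227 ± 73.7 CPM per kb in the libraries labelled overexpression, against 248 ± 53.7 and 297 ± 56.2 CPM per kb in the controls. The spreads of LDHA and TPI1 overlap, so their order is not resolved. Among the other targets DDIT4, EGLN1 and ADM had the highest means in both groups. They stood at 34.3 ± 24.6, 24.2 ± 0.907 and 24.4 ± 18.9 CPM per kb in the libraries labelled overexpression and at 42.6 ± 17.1, 28.5 ± 3.32 and 22.7 ± 7.73 CPM per kb in the controls, and P4HA1 followed at 21.9 ± 2.33 CPM per kb in the libraries labelled overexpression and 19.2 ± 3.53 CPM per kb in the controls. P4HA1 lay within the spread of ADM, and the order of these genes was not resolved. At the other end stood PDK1, EGLN3, ANKRD37, ALDOC and CA9, each below 1 CPM per kb in both group means.

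**Figure D1:**
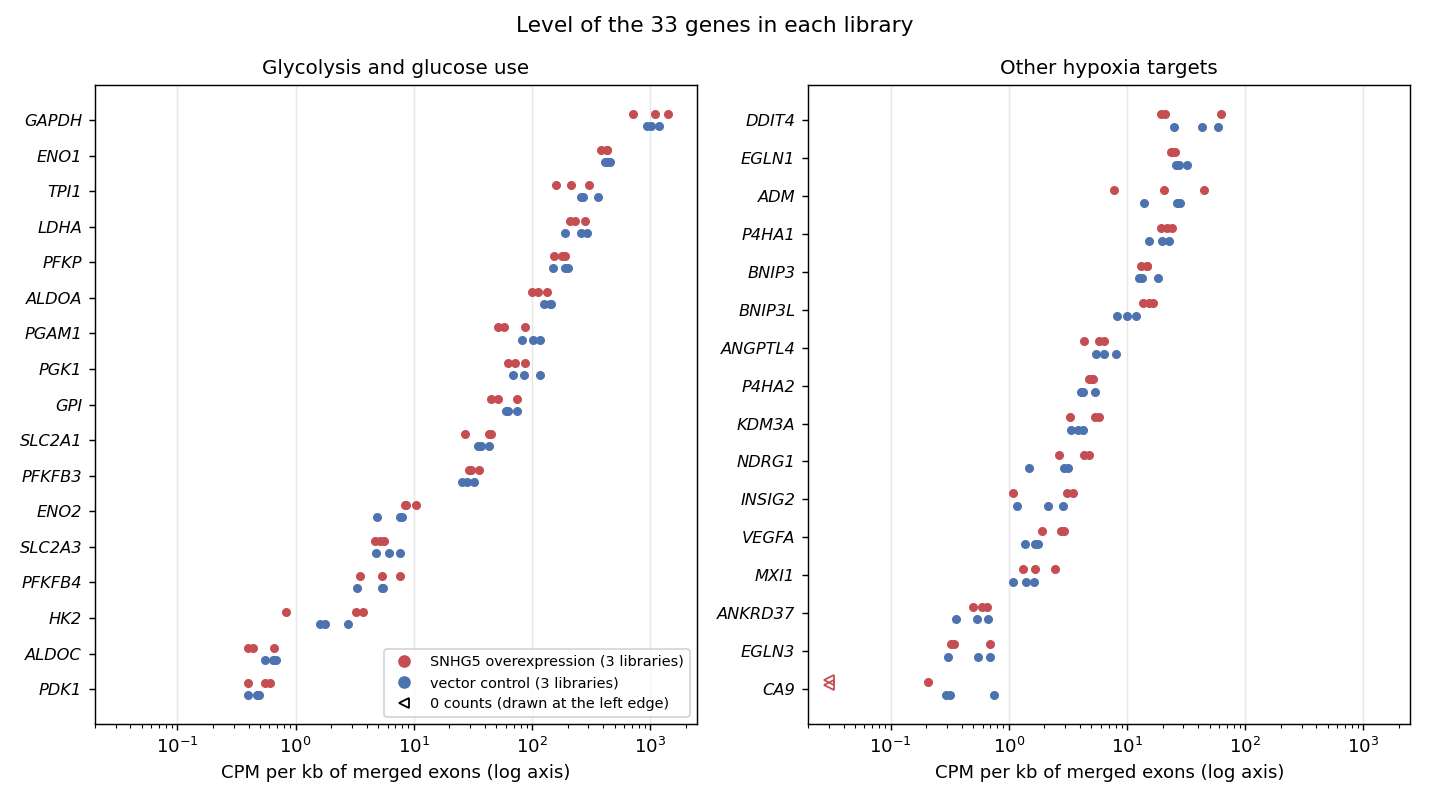
Level of each of the 33 genes in each library, in CPM per kb of merged exons on a log axis, with the 3 libraries labelled SNHG5 overexpression above the 3 controls in each row. GAPDH lies near 1072 and 1052 CPM per kb in the group means and CA9 below 1 in all libraries, with the 2 libraries at 0 counts drawn as open triangles at the left edge.

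None of the 32 genes that passed the low-count filter rose or fell between the groups after adjustment over all 15631 genes tested, with edgeR adjusted p from 0.621 to 0.998. DESeq2 and limma-voom called 0 of the 32 as well, against 1.7% and 0.154% of all genes. Over all genes edgeR called 0.128%, a share at which 0 of 32 genes does not stand apart. With the replicate number as a block edgeR again called 0 of the 32, against 0.467% of all genes. At an unadjusted edgeR p under 0.05 there were 3 of the 32 genes, against 6.49% of all genes, with VEGFA and BNIP3L above 0 (2.09% of all genes) and PGAM1 below 0 (4.41% of all genes). The same count was 3 with DESeq2 and 3 with limma-voom, against 7.43% and 6.83% of all genes. The groups did not overlap for 4 of the 32, against 13.6% of all genes. These were VEGFA, BNIP3L and ENO2 with the libraries labelled overexpression higher (6.04% of all genes) and EGLN1 with them lower (7.52% of all genes). The median size of the log2 fold change, without its sign, was 0.24 over the 32 genes and 0.27 over all genes. For 19 of the 32 the 95% interval of the difference lay inside a 2-fold change either way, 13 of 17 glycolysis genes and 6 of 15 other targets. The same held for 50.3% of all genes, and for 6580 of the 9971 genes with a mean of at least 10 CPM. The 32 genes were not matched to either set by level. For the remaining 13 a 2-fold difference lay within the interval.

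**Figure D2:**
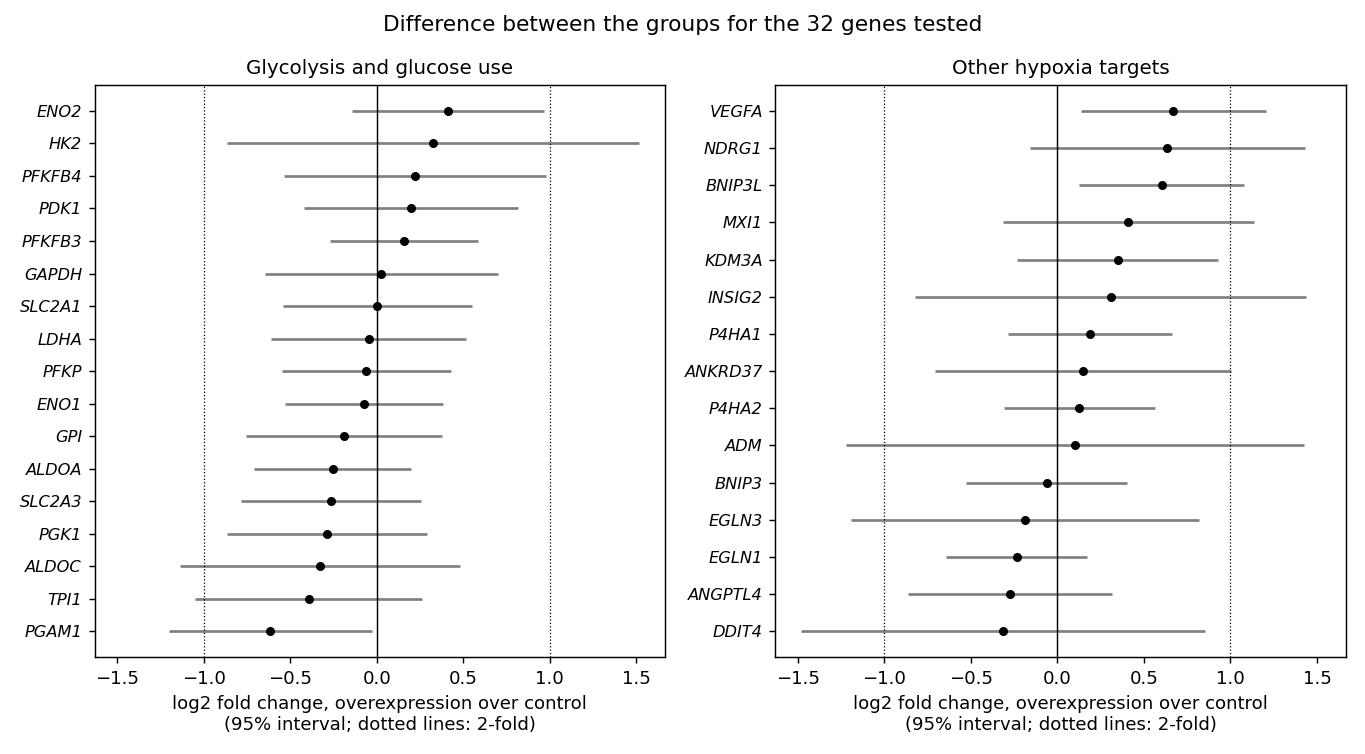
Log2 fold change of the libraries labelled SNHG5 overexpression over the controls for the 32 genes tested, with its 95% interval from the edgeR fit of 3 libraries per group, and dotted lines at a 2-fold change. VEGFA at 0.67 and BNIP3L at 0.60 have intervals above 0, PGAM1 at -0.62 has one below 0, and none of them passes after adjustment.

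Glucose enters through the transporters SLC2A1 and SLC2A3. SLC2A1 held 128.5, 204.5 and 212.2 CPM in the libraries labelled overexpression and 165.3, 203.8 and 174.6 CPM in the controls. The controls lay inside the range of the other group, and the log2 fold change was 0.00 with an interval of -0.54 to 0.55. SLC2A3, at 28.97 to 34.2 CPM in the libraries labelled overexpression against 29.3 to 47.2 CPM in the controls, had a log2 fold change of -0.26 (SE 0.23).

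The preparatory enzymes turn glucose into triose phosphates. Of the 6 among the 33 genes (HK2, GPI, PFKP, ALDOA, ALDOC and TPI1), 5 had a log2 fold change below 0 and none passed the test. Over all genes tested, 50.7% lay above 0. Outside the 33 genes, the tested preparatory enzymes HK1, HKDC1 and PFKM were at 0.27, 0.60 and 0.14, and ADPGK and PFKL at -0.20 and -0.37. Their SEs were 0.20, 0.30, 0.24, 0.26 and 0.28, and none passed the test. Hexokinases trap glucose in the cell, and HK1 and HKDC1 stood above HK2 in the counts. Their means were 207.1 and 209.5 CPM in the libraries labelled overexpression and 171.3 and 138 CPM in the controls. HK2 held 22.4, 19.7 and 5.06 CPM in the libraries labelled overexpression and 16.9, 10.8 and 9.85 CPM in the controls. The library labelled overexpression 3 was the lowest of all 6 and the other 2 of its group the highest, so that the log2 fold change of 0.33 had an SE of 0.51. It was -0.02 without overexpression 1 and 0.75 without overexpression 3. GPI, which isomerises glucose phosphate, PFKP, a phosphofructokinase at the committed step, and ALDOA, the main aldolase, had log2 fold changes of -0.19, -0.06 and -0.26 with SEs of 0.25, 0.21 and 0.20. ALDOC, another aldolase, was at 1.17 to 1.92 CPM in the libraries labelled overexpression against 1.601 to 2.00 CPM in the controls. It overlaps AC005726.1 on the same strand, which had 112 counts against 155 for ALDOC.
TPI1, which interconverts the triose phosphates, held 430, 580 and 825 CPM in the libraries labelled overexpression and 707, 978 and 723 CPM in the controls. The libraries labelled overexpression 1 and 2 lay below every control and overexpression 3 above controls 1 and 3, for a log2 fold change of -0.39 (SE 0.28, edgeR adjusted p 0.749). Its 4 listed pseudogene copies took 24.2% of the counts of gene and copies together, and the share of reads that belong to the gene is therefore uncertain.

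The pay-off enzymes turn triose phosphates into pyruvate. PGAM1, the phosphoglycerate mutase (chromosome 10, 97426160 to 97433441 on GRCh38), had the lowest log2 fold change of the 32 genes. It held 148.7, 132.5 and 223.5 CPM in the libraries labelled overexpression and 212.5, 299.3 and 261.5 CPM in the controls. Overexpression 3 lay above control 1, and overexpression 1 and 2 lay below every control. The log2 fold change was -0.62 (SE 0.25, interval -1.20 to -0.03), with an edgeR p of 0.0421 and an adjusted p of 0.743, and it was below 0 in all 3 same-numbered pairs.
GAPDH, the enzyme often used as a loading standard, held 2118, 3251 and 4219 CPM in the libraries labelled overexpression and 2820, 3551 and 3040 CPM in the controls. The first of these libraries was the lowest and the third the highest of all 6, and the log2 fold change of 0.03 (SE 0.29) was -0.22 without overexpression 3 and 0.25 without overexpression 1. ENO1, the main enolase, was the steadiest of the 32 genes, at 2003, 2256 and 2272 CPM in the libraries labelled overexpression and 2408, 2288 and 2170 CPM in the controls, with a standard deviation within groups of 0.09 on the log2 scale. ENO2, the neuronal enolase that is also a HIF target, held 36.7, 44.3 and 36.03 CPM in the libraries labelled overexpression and 21.0, 32.5 and 34.3 CPM in the controls. All 3 libraries labelled overexpression lay above all controls, closely so for control 3, and the log2 fold change of 0.41 (SE 0.24) had an edgeR adjusted p of 0.746. ENO2 overlaps LRRC23 on the same strand, which had 945 counts against 3198 for ENO2 and a log2 fold change of 0.09. The part of this overlap in the difference of ENO2 was not tested. PGK1, which makes ATP from bisphosphoglycerate, held 346, 393 and 481 CPM in the libraries labelled overexpression and 381, 638 and 472 CPM in the controls, and its log2 fold change of -0.29 (SE 0.25) was -0.07 without control 2.

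LDHA, which reduces pyruvate to lactate, held 1439, 1302 and 1733 CPM in the libraries labelled overexpression and 1174, 1827 and 1620 CPM in the controls. The groups overlapped throughout, with a log2 fold change of -0.05 and an interval of -0.61 to 0.52. The regulators of flux lay just above 0 with none passing the test. PFKFB3 and PFKFB4, which set the level of an activator of phosphofructokinase, and PDK1, a kinase that shuts off pyruvate dehydrogenase, had log2 fold changes of 0.16, 0.22 and 0.20 with SEs of 0.19, 0.33 and 0.27. PFKFB4 turned to -0.08 without overexpression 1, and it overlaps UCN2 on the same strand, which had 1139 counts against 2925 for PFKFB4.

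Outside glycolysis, CA9, a carbonic anhydrase that acidifies the space outside hypoxic tumour cells and is widely used as a marker of hypoxia, was almost silent. It had 0, 0 and 6 counts in the libraries labelled overexpression 1, 2 and 3 and 8, 19 and 8 counts in controls 1, 2 and 3. Every control lay above every library of the other group, but the gene did not pass the low-count filter. Without that filter its log2 fold change was -2.56 (SE 0.98), with an edgeR p of 0.0231 and an adjusted p of 0.739 over 28667 genes. CA9 overlaps ARHGEF39 on the opposite strand, which had 931 counts over the 6 libraries against 41 for CA9, and the library kit does not mark the strand.

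Among the secreted factors, VEGFA, the main growth factor of blood vessels (chromosome 6, 43770184 to 43786487 on GRCh38), had the highest log2 fold change of the 32 genes. It held 42.4, 40.0 and 27.5 CPM in the libraries labelled overexpression and 19.8, 23.9 and 25.3 CPM in the controls. The groups did not overlap, although overexpression 3 stood next to control 3. The mean was 36.6 ± 7.97 CPM against 23.0 ± 2.87 CPM (SD, n = 3 each), a log2 fold change of 0.67 (SE 0.23, interval 0.13 to 1.21) with an edgeR p of 0.0206 and an adjusted p of 0.643. Each of these libraries was above the control of its own number, with log2 differences of 1.09, 0.74 and 0.12. ADM, the vasodilator peptide adrenomedullin, held 122.2, 55.7 and 21.0 CPM in the libraries labelled overexpression and 76.2, 71.6 and 37.7 CPM in the controls. The spread inside the first group was wider than any difference between groups, with a log2 fold change of 0.10 (SE 0.57) that was -0.69 without overexpression 1, 0.52 without overexpression 3 and -0.17 with the replicate number as a block. ANGPTL4, an inhibitor of lipoprotein lipase, stood at -0.27 (SE 0.26).

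The mitophagy receptors, which sit on the outer mitochondrial membrane and recruit the autophagy machinery and are both HIF targets, gave unlike values. BNIP3L held 71.5, 66.4 and 58.7 CPM in the libraries labelled overexpression and 42.9, 51.3 and 35.3 CPM in the controls. The groups did not overlap, and the means of 65.5 ± 6.45 and 43.2 ± 8.00 CPM gave a log2 fold change of 0.60 (SE 0.21, interval 0.13 to 1.08) with an edgeR p of 0.0192 and an adjusted p of 0.621. It overlaps PNMA2 on the opposite strand, which had 2099 counts against 5097 for BNIP3L and a log2 fold change of -0.01. The part of this overlap in the difference of BNIP3L was not tested. BNIP3 held 78.5, 77.9 and 69.3 CPM in the libraries labelled overexpression and 71.8, 96.6 and 67.3 CPM in the controls, a log2 fold change of -0.06 (SE 0.20). Its 39 listed pseudogene copies took 11.4% of the counts of gene and copies together. The difference between the changes of BNIP3L and BNIP3 was not tested. Beside the differences of VEGFA and BNIP3L, ribosomal RNA genes took 1.14%, 1.04% and 1.12% of the counts in the libraries labelled overexpression and 0.852%, 0.8% and 0.839% in the controls, and the part of this share in them was not tested.

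**Figure D3:**
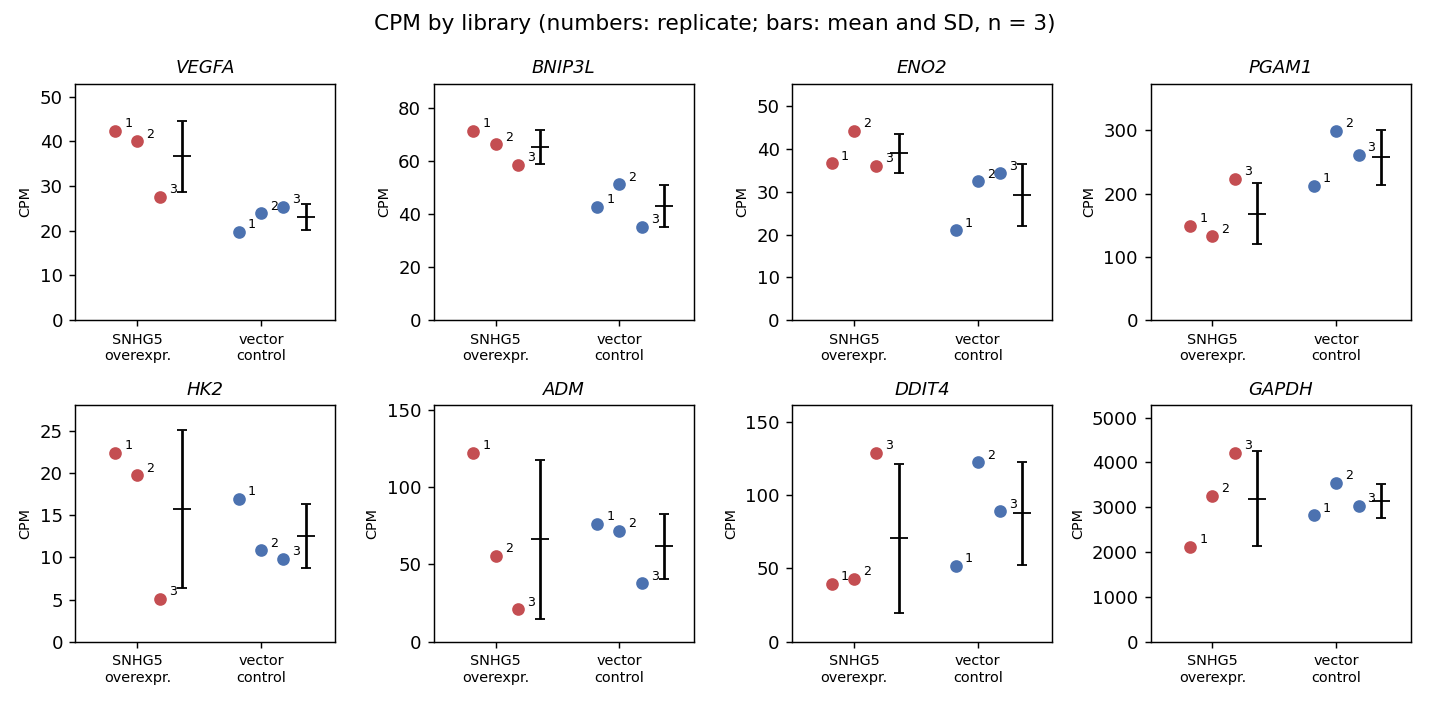
CPM of 8 genes in each library, with the replicate number beside each point and the mean and SD of 3 libraries as a bar, the libraries labelled SNHG5 overexpression on the left of each panel. VEGFA, BNIP3L and ENO2 do not overlap between the groups. VEGFA, PGAM1, GAPDH, HK2, ADM and DDIT4 differ more among the 3 libraries labelled overexpression (ADM 122.2 to 21.0 CPM) than between the group means.

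The oxygen-sensing hydroxylases are HIF targets themselves and limit the response. EGLN1, the main HIF prolyl hydroxylase, held 170.6, 183.3 and 173.7 CPM in the libraries labelled overexpression and 200.2, 233.7 and 186.9 CPM in the controls. All 3 lay below every control, by a log2 fold change of -0.23 (SE 0.18, edgeR adjusted p 0.751), and it was the 1 tested gene of the 32 whose groups did not overlap with the overexpression label lower. EGLN3, a related hydroxylase, was at 2.37 to 5.06 CPM in the libraries labelled overexpression against 2.27 to 5.12 CPM in the controls, and it overlaps SPTSSA on the same strand, which had 7810 counts against 338 for EGLN3. KDM3A, a histone demethylase, and the collagen prolyl hydroxylase subunits P4HA1 and P4HA2 had log2 fold changes of 0.35, 0.19 and 0.13 with SEs of 0.25, 0.21 and 0.19. P4HA2 overlaps SLC22A4 on the opposite strand, which had 522 counts against 3813 for P4HA2.

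The remaining targets act in growth control, signalling and lipid metabolism. NDRG1, a stress-responsive gene with a part in differentiation, held 42.6, 47.2 and 26.1 CPM in the libraries labelled overexpression and 30.9, 29.1 and 14.7 CPM in the controls. Each lay above the control of its own number, by 0.46, 0.70 and 0.83 on the log2 scale, while the groups overlapped. The log2 fold change of 0.63 (SE 0.34) had an edgeR adjusted p of 0.746 and, with the replicate number as a block, 0.401. DDIT4, an inhibitor of mTOR signalling, held 39.7, 42.9 and 128.9 CPM in the libraries labelled overexpression and 51.8, 122.2 and 88.8 CPM in the controls. Overexpression 3 was the highest library and overexpression 1 and 2 the lowest, for a log2 fold change of -0.31 (SE 0.50) that was -1.09 without overexpression 3 and 0.00 without control 2. MXI1, which opposes MYC, INSIG2, which holds back sterol synthesis, and ANKRD37 were at 0.41, 0.31 and 0.15, with SEs of 0.31, 0.49 and 0.37. ANKRD37 overlaps UFSP2 on the opposite strand, which had 1717 counts against 132 for ANKRD37.

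Set side by side, the glycolysis genes and the other targets had overlapping ranges of log2 fold change, -0.62 to 0.41 and -0.31 to 0.67. The median log2 fold change was -0.06 over 17 glycolysis genes, with 7 above 0 and 10 below, and 0.15 over 15 other targets, with 10 above 0 and 5 below, while it was 0.01 over all genes, of which 50.7% lay above 0. Among the 12 enzymes from HK2 to LDHA within the 33 genes, 9 were below 0. In each library, the median deviation of the glycolysis genes from their own means was -0.15, 0.02 and 0.11 in the libraries labelled overexpression 1, 2 and 3, against 0.04, 0.17 and 0.08 in the controls in the same order. For the other targets it was 0.11, 0.10 and -0.06 in the libraries labelled overexpression, against -0.15, 0.27 and -0.14 in the controls. The difference of these medians, glycolysis less other targets, was -0.06 ± 0.22 in the libraries labelled overexpression and 0.10 ± 0.18 in the controls (SD, n = 3 each), and the values overlapped.

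**Figure D4:**
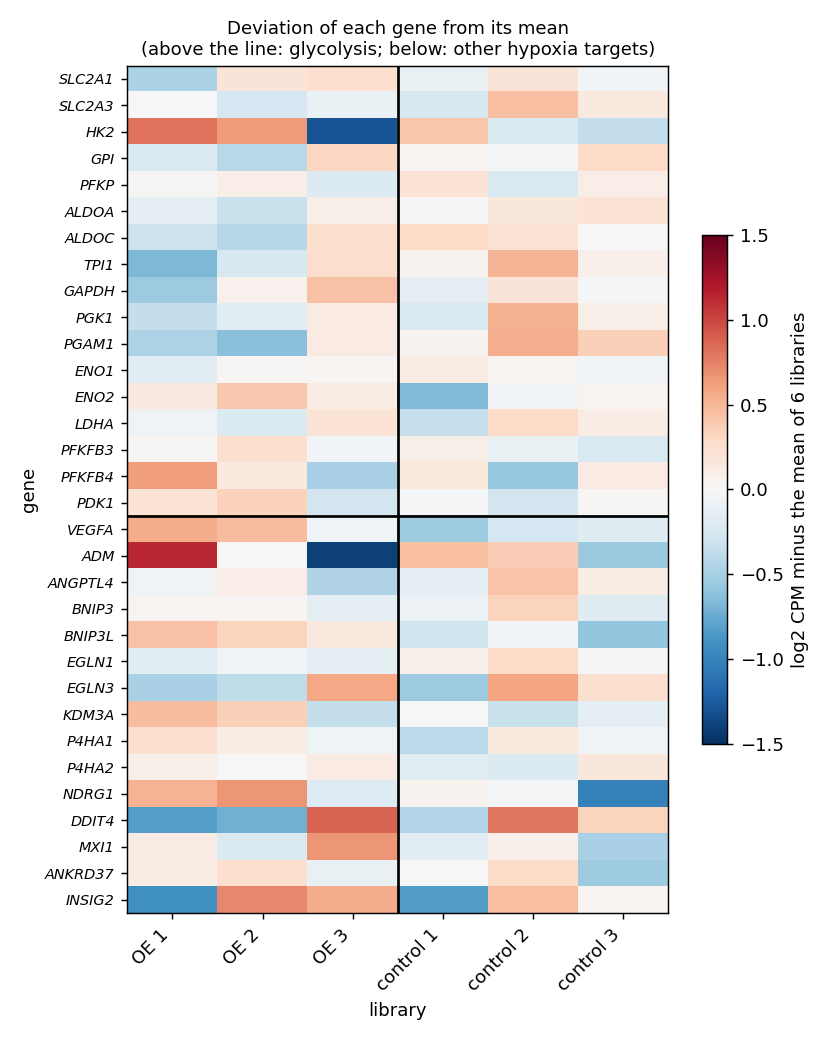
Deviation of each tested gene from its mean over 6 libraries, in log2 CPM, with glycolysis genes above the horizontal line and other targets below it, and the libraries labelled SNHG5 overexpression (OE) left of the controls. Red and blue do not follow the vertical line between the groups for most genes, and HK2, ADM and DDIT4 set the library labelled overexpression 3 apart from overexpression 1 and 2.

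The median standard deviation within groups was 0.29 on the log2 scale over the 32 genes, against 0.36 over all genes tested and 0.31 over the 9971 genes with a mean of at least 10 CPM. ADM at 0.98, HK2 at 0.88, DDIT4 at 0.80 and INSIG2 at 0.79 were the widest.

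The rest of the pathway was described from lists of HIF pathway genes, other glycolysis and pyruvate genes, and other hypoxia targets. None of the 19, 33 and 36 genes tested passed in either direction in edgeR, and 0, 2 and 1 of them had an unadjusted edgeR p under 0.05, against 6.49% of all genes. The medians were 0.04, -0.10 and 0.06 on the log2 scale. HIF1A and EPAS1, which encode the alpha subunits, stood at 878 to 1017 CPM and 254 to 296 CPM in the libraries labelled overexpression, against 729 to 1017 CPM and 278 to 307 CPM in the controls, with log2 fold changes of 0.09 (SE 0.21) and -0.09 (SE 0.17). VHL was at 0.04 (SE 0.19). ARNT held 80.1, 62.5 and 58.7 CPM in the libraries labelled overexpression and 53.0, 49.9 and 54.9 CPM in the controls, at a log2 fold change of 0.35 (SE 0.19, edgeR adjusted p 0.746). ELOB, CUL2 and SIAH2, which take part in the ubiquitin ligases of the pathway, were at -0.55, 0.36 and -0.29 with SEs of 0.28, 0.23 and 0.20. The groups did not overlap for 3 of the 19 HIF pathway genes, ARNT with the libraries labelled overexpression higher and ELOB and SIAH2 with them lower, against 13.6% of all genes. HIF activity is set mainly by protein stability, which RNA counts do not measure.

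The smallest p over these lists belonged to SLC2A12, a sugar transporter. It held 1.40, 0.728 and 2.39 CPM in the libraries labelled overexpression and 6.397, 8.79 and 7.88 CPM in the controls, 5.05-fold lower, with an edgeR p of 0.000672 and an adjusted p of 0.121, or 0.0942 with the block. PFKFB2, a relative of PFKFB3 and PFKFB4, held 51.2, 43.2 and 33.1 CPM in the libraries labelled overexpression and 28.8, 21.1 and 27.3 CPM in the controls, at a log2 fold change of 0.73 (SE 0.24, edgeR adjusted p 0.568). SLC16A7, a monocarboxylate transporter, was at 1.29 (SE 0.60), with 12.2 CPM in overexpression 1 against 2.03 to 3.93 CPM in the other 5 libraries. PGAM4, a near-identical copy of PGAM1, was at -0.56 (SE 0.27). The share of its reads that belong to PGAM1 is uncertain, so its value is not a separate measure from that of PGAM1. Among the other targets STC1, a secreted glycoprotein, held 105.5, 111.5 and 23.2 CPM in the libraries labelled overexpression and 39.2, 36.3 and 20.6 CPM in the controls, with a log2 fold change of 1.32 (SE 0.55, edgeR adjusted p 0.743). PPP1R3C, a glycogen-targeting phosphatase subunit, TGFA, a ligand of the EGF receptor, and PLIN2, a coat protein of lipid droplets, were at 0.62, 0.81 and 0.87 with SEs of 0.29, 0.41 and 0.52. In STC1, TGFA and PLIN2 the libraries labelled overexpression 1 and 2 were the highest of the 6, and overexpression 3 lay in or below the range of the controls.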

How the data were processed

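RNA was measured by sequencing in 6 A549 libraries, 3 labelled SNHG5 overexpression and 3 labelled control, prepared with a TruSeq RNA kit per the labels' protocols. FastQC, HISAT2 and GRCh38 were used per the submitters' processing notes, while nothing on versions, the counter or its strand mode is given in the sources used here. All tests used the raw counts that the authors deposited for each gene and library. The FPKM values deposited beside them entered no result.

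Counts were tested with edgeR 4.0.16 (R 4.3.3): filterByExpr, TMM factors and the robust quasi-likelihood test, two-sided, with Benjamini-Hochberg adjustment over 15631 genes at 0.05. Standard errors were derived from the fold change and its F statistic. CPM values use TMM-scaled totals, and levels per kb divide them by merged GENCODE release 29 exons. On simulated counts for this comparison, over 15309 genes, 10.7% of 2-fold and 82% of 4-fold changes were recovered, and 5.83% of calls were false. The changed genes, 200 in each of 3 runs, were drawn from genes above a count floor, so recovery at low counts was not measured. Simulated libraries were drawn independently, without shifts shared by many genes. Limits set by 3 counts cover counting error only. The 33 genes and all lists were chosen with earlier results of these data known. Named genes are the 33, SNHG5, HIF1A, EPAS1, ARNT, VHL and up to 4 per pathway list with the smallest p. HK1, HKDC1, ADPGK, PFKL and PFKM are also named, as other preparatory enzymes. The labels call the samples biological replicates, and p-values measure only the spread between them. Replicates differed by 26.2 to 94.5 chi-square units per degree of freedom, far above sampling noise.

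Same-numbered libraries of the 2 groups deviated together (correlations of 0.355, 0.157 and 0.292), against -0.341 to 0.117 between different numbers. The deviations were taken from each group's own mean, so higher values for some combinations force lower ones for others. The 0.157 of number 2 lay near the 0.117 of overexpression 2 with control 1. The labels' protocol also speaks of pairs. The main test used no pairing, and the replicate number entered only as a block in an alternative fit. Other settings tried were a replicate block, leaving out each library, DESeq2 size factors, 2 other filters, DESeq2 1.42.0, limma-voom (limma 3.58.1) and adding pseudogene counts to their parent gene.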

Additional observations from a re-analysis of the deposited data

How the results depend on the processing

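Under each of the 13 alternatives 0 of the genes tested were called in either direction (32 of the 33, but 31 with the stricter filter and 33 with no filter), and the lowest adjusted p of any of them was 0.0998, for VEGFA without overexpression 3 (0.0998 to 1 over the alternatives). Without that library 8 of the 32 had an edgeR p under 0.05 before adjustment, against 21.2% of all genes. Over fits without 1 library SNHG5 ran from 0.39 to 0.97, VEGFA from 0.55 to 0.84, BNIP3L from 0.47 to 0.74 and PGAM1 from -0.88 to -0.48, none past the threshold. The median over glycolysis genes ran from -0.17 (without overexpression 3) to -0.029, that over the other targets from 0.07 to 0.26, and their difference from -0.33 to -0.13. Of 415 values for the 32 genes, 26 turned in sign, in the uncalled genes SLC2A1, HK2, PFKP, GAPDH, LDHA, PFKFB4, ADM, BNIP3, EGLN3, DDIT4 and ANKRD37. Paired libraries changed no call here: with the replicate block 0 of the 32 genes passed, while the genes lower over the whole table numbered 69 in place of 16, against 72 with no filter and 246 with DESeq2, which also gave 20 higher in place of 4. Without 1 library the higher genes numbered 0 to 20 and the lower 0 to 144, the most without overexpression 3 and 0 of both without overexpression 2, control 2 or control 3. The cause of these shifts was not tested. Changes of 2-fold were mostly out of reach (10.7% recovered on simulated counts), and smaller ones were not simulated. The 3 counts limit a library to 0.175 to 0.218 CPM.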
